A study of Mus musculus with 12 samples.

Results

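miR-122 is the dominant microRNA (miRNA) of hepatocytes, and its 2 mature arms, mmu-mir-122-5p and mmu-mir-122-3p, were followed in the blood and colon of mice with and without colitis. They are 2 of the 1978 rows of the count table, 1405 of which held at least 1 count. Only miR-122-5p was counted; mmu-mir-122-3p was at 0 in all 12 libraries. The miRNA was selected for its fall in the blood of colitis mice, so its blood difference is given below as a description, without a test. The colon libraries were not used to choose it, and DSS against control was tested there. Blood against colon rests in part on the blood libraries that chose it and is also given as a description.

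The study modelled acute ulcerative colitis in male C57BL/6 mice, 8 weeks old, with dextran sulfate sodium (DSS), a polysaccharide that damages the colon epithelium. DSS mice (mice 1, 7 and 9) drank 1.5% (wt/vol) DSS for 7 days and control mice (mice 2, 4 and 8) drank water, and all were sacrificed on day 8. Small RNA was sequenced from the blood and the colon of each of these 6 wild-type mice, 3 in each group, which had been picked from a larger cohort by disease activity. Whole blood was stabilised in collection tubes and extracted with a blood kit, and colon was extracted with another kit, so tissue and kit cannot be told apart, nor can RNA of blood cells and of plasma. The labels contradict each other on 2 points. Their disease state field calls mice 1, 2 and 4 colitis mice and mice 7, 8 and 9 controls, which is not the grouping used here. The library names hold a mouse number but no treatment, so they do not settle this point. The grouping used here follows the libraries marked as DSS in the heatmaps of the study. The source field and the tissue field of the labels name opposite tissues, and the tissue field was followed. The erythroid miRNAs (5 listed) summed to between 762874 and 838958 CPM (counts per 1000000 counts of the library) in the libraries used as blood and to at most 5013 CPM in those used as colon. The smooth muscle miRNAs (2 listed) summed to at least 258944 CPM in colon and at most 459 CPM in blood, and the epithelial miRNAs (6 listed) to at least 34690 CPM in colon and at most 837 CPM in blood. Total counts were 21127134 to 32944792 in blood and 15060553 to 20106226 in colon.

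Hepatocytes make miR-122 from a single gene under liver transcription factors, and it regulates cholesterol and fatty acid metabolism and is a host factor of hepatitis C virus. The 5p arm is the guide strand that Argonaute keeps, and the 3p arm is the passenger strand that is mostly degraded. Injured hepatocytes release miR-122, and its plasma level is used as a marker of liver damage. Blood cells and the gut wall are not known as major sources.

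Other miRNAs that the liver holds in quantity are also made by the intestinal epithelium. The miR-192 family is one such case, and its members are shown because miR-194-5p and miR-215-5p were among those most like miR-122-5p across the blood libraries. The sequences are the mature forms of the deposited tables, 5′ to 3′, with the seed (bases 2 to 8, which pair with targets) in capitals. miR-192-5p and miR-215-5p share their seed, and miR-194-5p, which is transcribed together with them, has another.
mmu-mir-192-5p: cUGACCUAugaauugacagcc
mmu-mir-215-5p: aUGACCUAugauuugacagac
mmu-mir-194-5p: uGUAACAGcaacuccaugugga

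In blood, miR-122-5p was counted 138 times in DSS mouse 9, 257 times in DSS mouse 7 and 420 times in DSS mouse 1. It was counted 354 times in control mouse 2, 2598 times in control mouse 8 and 3323 times in control mouse 4. Control mouse 2 thus held fewer counts than DSS mouse 1, whose library was the deeper of the pair, and the other controls stood well above all DSS mice. In bulk RNA a smaller contribution of a cell type and less RNA per cell cannot be told apart. The 95% Poisson interval of the lowest count, 138, ran from 116 to 163, and those of all 12 libraries had half-widths of 3.42% to 17.1% of the count. These intervals cover counting error only, since reads without molecular identifiers are not independent molecules.

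Scaled by TMM factors (trimmed mean of M-values, computed within blood), miR-122-5p was at 6.37, 8.29 and 10.6 CPM in DSS mice 9, 7 and 1. In control mice 2, 8 and 4 it was at 15.9, 88.1 and 191 CPM. Group means were 8.41 ± 2.10 CPM for DSS and 98.4 ± 88.1 CPM for control (n = 3 each, ± SD), an 11.7-fold ratio, and the fitted log2 fold change was -3.55 (SE 0.76). Without control mouse 4 it was -2.57 (SE 0.64). It was the largest fitted change, in size, of the 484 miRNAs tested in blood, which is the value it was chosen by. With the grouping of the disease state label, which puts control mice 2 and 4 among the colitis mice, it was 1.08 (SE 1.34). By that grouping edgeR held 14 miRNAs in blood and 20 in colon at an unadjusted p under 0.05. The grouping used here gave 56 and 170. As a background, 48 of 484 miRNAs (9.92%) had all DSS mice below all control mice, and 0 of 484 (0.00%) were significantly differentially expressed (SDE: changed over 1.5-fold at an adjusted p not above 0.05) by edgeR's quasi-likelihood test. At an unadjusted p under 0.05 edgeR held 56 miRNAs, and DESeq2's Wald test, by which 287 miRNAs had an adjusted p, gave 10 SDE miRNAs, 3 higher (1.05%) and 7 lower (2.44%).

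**Figure D1:**
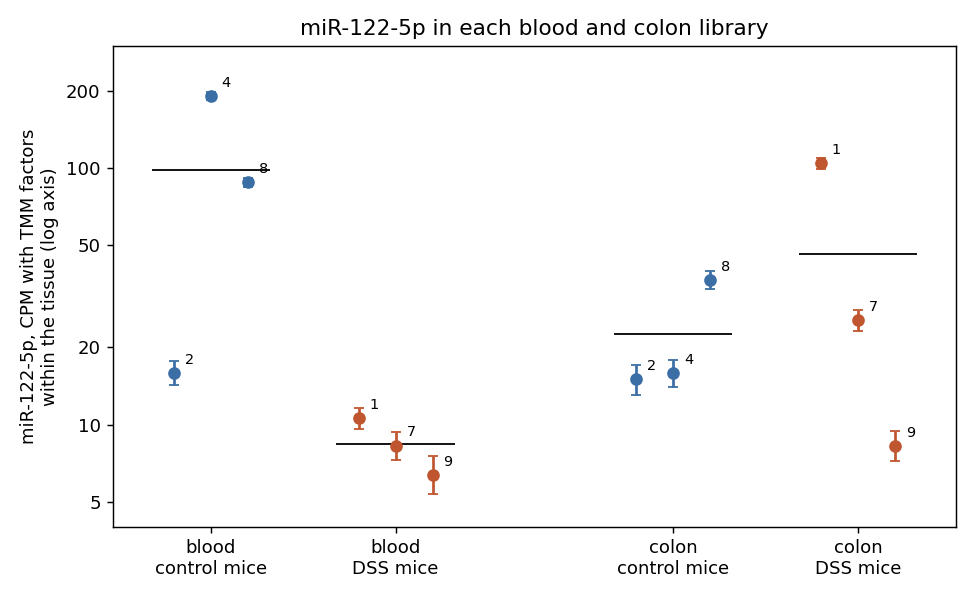
miR-122-5p in CPM with TMM factors within each tissue (vertical log axis), by tissue and group. Points are libraries with the mouse number, bars are 95% Poisson intervals of the count, and lines are group means. In blood the DSS mice lie between 6.37 and 10.6 CPM and control mouse 2 lies at 15.9 CPM, far below control mice 4 and 8; in colon the groups overlap and DSS mouse 1 is highest at 104 CPM.

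The separation of the groups in blood rested on mice 1 and 2. With TMM factors within blood, control mouse 2 was 1.50 times the level of DSS mouse 1. When counts were divided by library totals alone, these mice were at 14.1 and 14.0 CPM, a ratio of 1.01. With TMM factors over all 12 libraries the order turned, at 17.4 CPM in control mouse 2 and 17.6 CPM in DSS mouse 1. The groups were apart in 10 of 12 scalings, with ratios between 0.989 and 1.51 over the 12. The level itself depends on miR-486a-5p and miR-486b-5p, which share a mature sequence, are both counted for it and hold most counts of blood. With each mature sequence counted once, control mouse 2 and DSS mouse 1 were at 26.5 and 17.5 CPM, and with both entries left out at 73.1 and 48.9 CPM, so CPM values of blood are relative to this choice, as are the shares of colon to blood below. Control mice 4 and 8 remained above every DSS mouse in each of these scalings.

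In blood, miR-122-5p varied more among control mice than most miRNAs with a mean of at least 10 CPM, whatever their abundance above that. The SD of log2(CPM + 1) among the blood of control mice was 1.79, the second widest of 179 such miRNAs, whose median SD was 0.249. miR-3963 alone was wider, at 2.03. Among DSS mice the SD of miR-122-5p was 0.325, rank 87 of 184, with a median of 0.298, although its own mean was there under 10 CPM. The spread of miR-122-5p was thus wide in control blood and ordinary in DSS blood. Its neighbours in the order of mean levels in control blood were miR-181a-5p, a regulator of lymphocyte signalling, at 102 ± 18.7 CPM, and miR-351-5p at 96.8 ± 9.59 CPM (SD, n = 3 each). All 3 means lie within the SD of miR-122-5p, so their order is not resolved. In DSS blood miR-181a-5p was at 158 ± 28.4 CPM and miR-351-5p at 93.3 ± 7.62 CPM, whereas miR-122-5p fell from rank 82 to rank 197 of 484 by mean level. Within single libraries miR-122-5p ranked 66th, 83rd and 157th by count in control mice 4, 8 and 2, and 177th, 190th and 221st in DSS mice 1, 7 and 9.

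In colon, the question was whether miR-122-5p also differed with colitis in the inflamed organ. It was counted 1458, 453 and 214 times in DSS mice 1, 7 and 9, and 225, 263 and 584 times in control mice 2, 4 and 8. With TMM factors within colon this was 104, 25.5 and 8.28 CPM in DSS mice, and 15.0, 15.9 and 36.6 CPM in control mice. DSS mice held both the highest and the lowest value, and the groups overlapped. The means of 46.1 ± 51.3 CPM (DSS) and 22.5 ± 12.2 CPM (control) differed by less than the SD of 51.3 CPM among DSS mice (± SD, n = 3 each). The log2 fold change was 1.03 (SE 0.85, 95% interval -0.98 to 3.04), with an adjusted p of 0.433 from edgeR's quasi-likelihood test, so miR-122-5p was not SDE in colon. The interval reaches to both sides of 0, so neither direction was shown with these mice. Without mouse 1 the log2 fold change was -0.43, on the other side of 0, with an adjusted p of 0.618 from edgeR, and over 18 alternatives the adjusted p ran from 0.180 to 0.991.

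Against this, 55 of 542 miRNAs tested in colon (10.1%) were SDE, with 32 higher (5.90%) and 23 lower (4.24%) in DSS mice. That background itself depended on the scaling: RLE factors gave 16 SDE miRNAs (6 higher and 10 lower), upper-quartile factors gave 8 (4 higher and 4 lower), and total counts alone gave 47 (38 higher and 9 lower). Without mouse 2, 4, 7 or 8 it was 0 by edgeR.

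The spread among DSS colons was again wide. The SD of log2(CPM + 1) of miR-122-5p was 1.76 among DSS colons, rank 4 of 273 with a median of 0.233, and 0.691 among control colons, rank 6 of 269 with a median of 0.159. miR-361-5p (22.7 ± 3.26 CPM) and miR-486a-3p (22.2 ± 1.72 CPM), the other arm of an erythroid miRNA, stood next to it by mean level in control colons (SD, n = 3 each), and these means also lie within its SD.

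**Figure D2:**
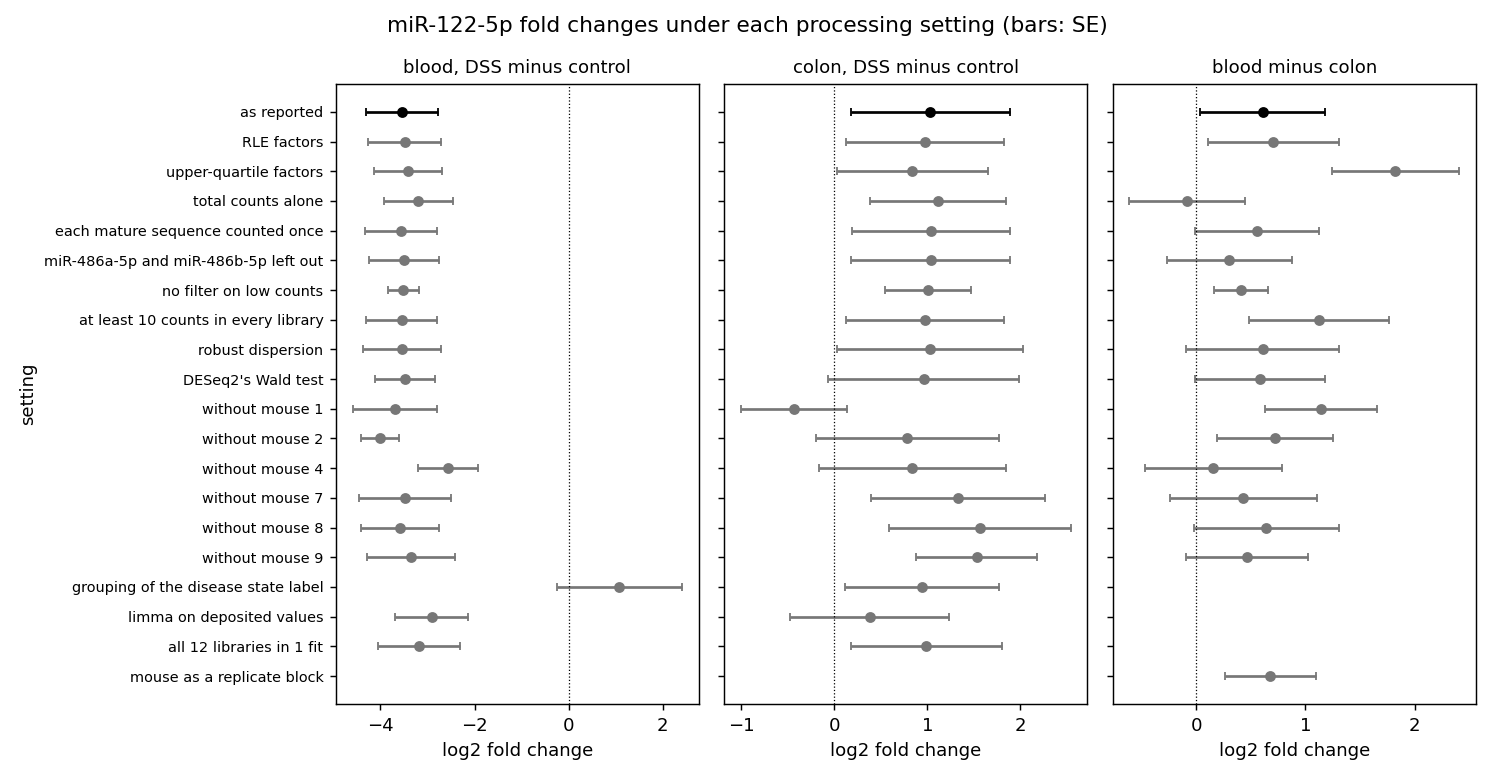
Log2 fold change of miR-122-5p (horizontal axis) under each processing setting (vertical axis) for DSS against control in blood, DSS against control in colon, and blood against colon. Points are estimates, black for the values of the text, bars are SE. In blood the estimate lies below 0 except at 1.08 with the grouping of the disease state label; in colon it lies above 0 except at -0.43 without mouse 1.

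Blood and colon were then compared over all 12 libraries, as the average of both treatments. With TMM factors over 12 libraries, blood of mice 1, 2, 4, 7, 8 and 9 held 17.6, 17.4, 199.6, 12.7, 124.6 and 7.21 CPM of miR-122-5p. Colon of the same mice, in the same order, held 78.6, 11.9, 12.5, 19.9, 28.3 and 6.26 CPM. Blood exceeded colon in all 3 control mice and in DSS mouse 9, by 16.0-fold in mouse 4, 4.40-fold in mouse 8, 1.46-fold in mouse 2 and 1.15-fold in mouse 9. In DSS mice 1 and 7 blood held 0.224 and 0.641 times the level of colon. The average log2 fold change of blood over colon was 0.61 (SE 0.57). Control mice 4 and 8 carry both the fall in blood and the high end of this average, and the spread in blood differed between the groups, so the average is not independent of the choice and no test is given.

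As a background, 603 of the 680 miRNAs fitted (88.7%) were SDE between blood and colon, 256 higher and 347 lower in blood. The median size of the log2 fold change was 3.49, and only 58 miRNAs had a smaller one than miR-122-5p. Its SE of 0.57 was above the median SE of 0.343, and 101 miRNAs had a larger one. The value shifted with the scaling, as did all miRNAs: the median log2 fold change of all 680 miRNAs was -0.86 with TMM factors, -1.59 with total counts alone and 0.33 with upper-quartile factors. miR-122-5p was at -0.082 with total counts alone and at 1.82 with upper-quartile factors. It was at 1.15 without mouse 1 and at 0.16 without mouse 4. Relative to the median of all miRNAs it stood above in each of these scalings.

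**Figure D3:**
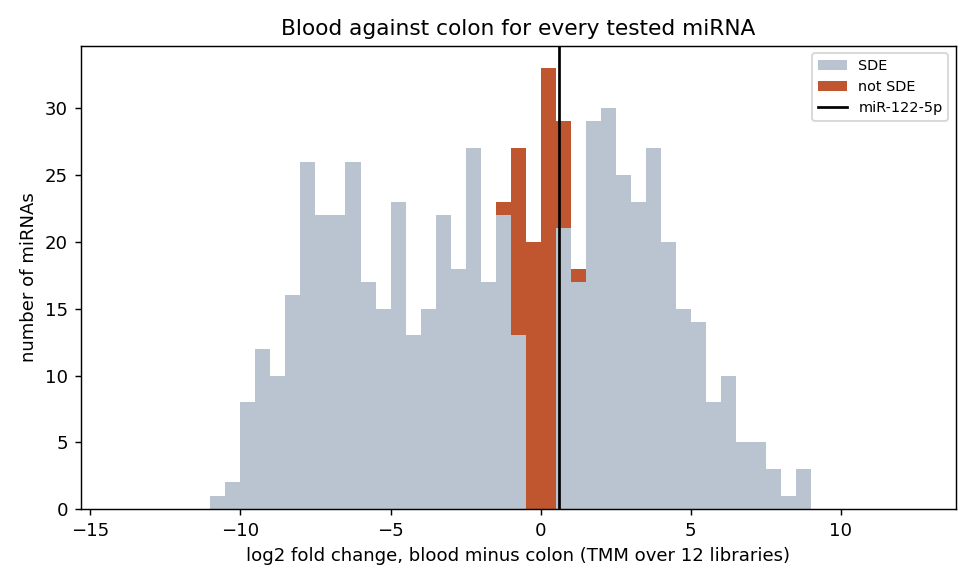
Number of miRNAs (vertical axis) by log2 fold change of blood over colon (horizontal axis, TMM factors over 12 libraries), with SDE and other miRNAs in separate colours and a line at miR-122-5p. miR-122-5p lies at 0.61, near the middle, where the 77 miRNAs that were not SDE gather.

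Split by treatment, the values embed the blood difference that chose the miRNA and are given without a test. Blood over colon was a log2 fold change of 2.70 (SE 0.85) in control mice and -1.48 (SE 0.82) in DSS mice, with TMM factors. The DSS value depends on the scaling: with upper-quartile factors the log2 ratio of blood over colon was -1.21, 0.43 and 1.64 in DSS mice 1, 7 and 9. The level of miR-122-5p in colon was not a fixed share of its level in blood. By total counts, colon held 690%, 341% and 163% of the blood level in DSS mice 1, 7 and 9, and 104%, 10.6% and 30.5% in control mice 2, 4 and 8. With upper-quartile factors colon held 2.31, 0.742 and 0.322 times the blood level in DSS mice 1, 7 and 9. By total counts the erythroid miRNAs, markers of red cells, gave much lower shares over the 6 mice: 2.03% to 7.88% for miR-451a, 0.336% to 0.553% for miR-486a-5p, and 0.358% to 11.0% for miR-144-5p. The lowest share of miR-122-5p, 10.6% in control mouse 4, was above the ranges of miR-451a and miR-486a-5p and just inside that of miR-144-5p. The erythroid shares were computed by total counts alone, and the part of blood in the colon values of miR-122-5p was not tested.

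**Figure D4:**
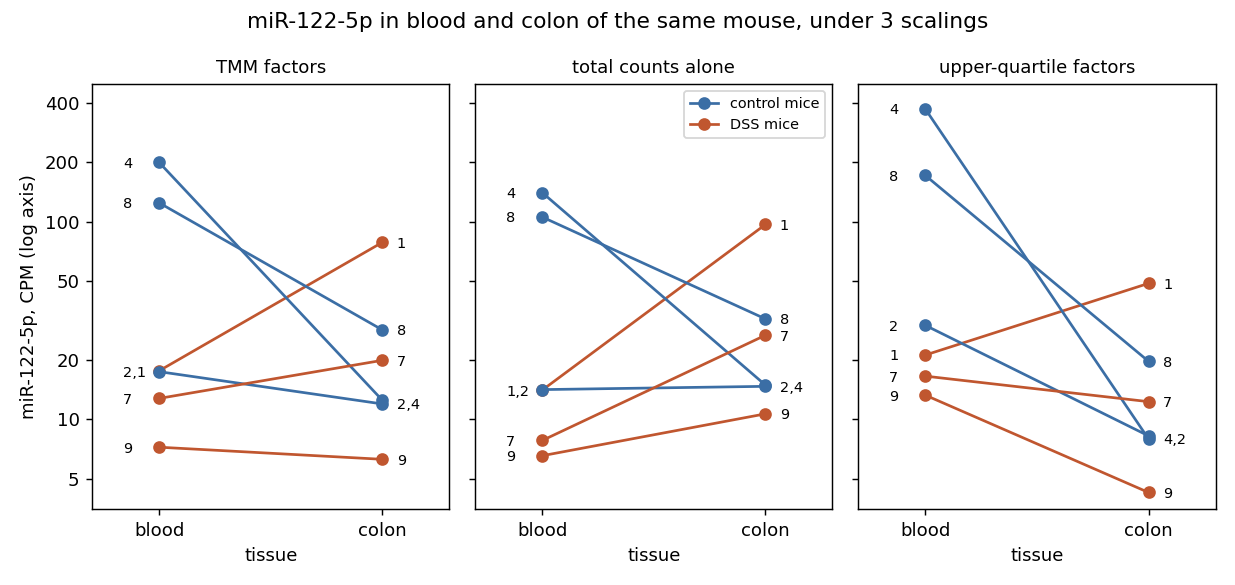
miR-122-5p in CPM (vertical log axis) in blood and colon (horizontal axis) of the same mouse, joined by a line and marked with the mouse number, under 3 scalings over 12 libraries. Colon exceeds blood in DSS mouse 1 under all 3 scalings, and blood exceeds colon in control mice 4 and 8 under all 3.

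The miRNAs whose log2(CPM + 1) followed miR-122-5p most closely over the 6 blood libraries were sought among 182 with a mean of at least 10 CPM. The points share their libraries, depth and scaling, and the correlations are given as a description. miR-194-5p, an epithelial and liver miRNA, had Pearson's r = 0.90 and Spearman's rho = 0.77. It was at 36.7, 37.7 and 37.1 CPM in DSS mice 1, 7 and 9 and at 57.6, 76.5 and 57.5 CPM in control mice 2, 4 and 8, so that all DSS mice were below all controls. miR-215-5p, which shares the seed of miR-192-5p, had r = 0.86 and rho = 0.94. It was at 21.1, 26.4 and 18.9 CPM in DSS mice 1, 7 and 9 and at 36.5, 43.1 and 40.5 CPM in control mice 2, 4 and 8, again without overlap, as held for 9.92% of all miRNAs tested in blood. Likeness to a miRNA chosen for its fall favours such miRNAs. When control mice 4 and 8, the farthest from the median of miR-122-5p, were left out, r was 0.84 for both, over 3 DSS mice and a single control mouse.

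For the other 3, r fell further without those mice than for miR-194-5p and miR-215-5p. miR-3963 had r = 0.89 and rho = 0.54, with r = -0.59 without mice 4 and 8. miR-5099 went from r = 0.79 (rho = 0.83) to -0.09, and miR-1981-5p from r = 0.76 (rho = 0.83) to 0.36. The falls of miR-194-5p and miR-215-5p in DSS blood were far smaller than that of miR-122-5p, at log2 fold changes of -0.78 (SE 0.22) and -0.85 (SE 0.23), and neither was SDE by edgeR (adjusted p = 0.246 for both). DESeq2 gave an adjusted p of 0.0599 for miR-194-5p and 0.0472 for miR-215-5p, which was SDE by that test. miR-192-5p, which shares a transcript with miR-194-5p, was at 489 ± 57.1 CPM in DSS blood and 508 ± 34.6 CPM in control blood (n = 3 each, ± SD), with a log2 fold change of -0.06 (SE 0.20) and an adjusted p of 0.938 from edgeR.

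**Figure D5:**
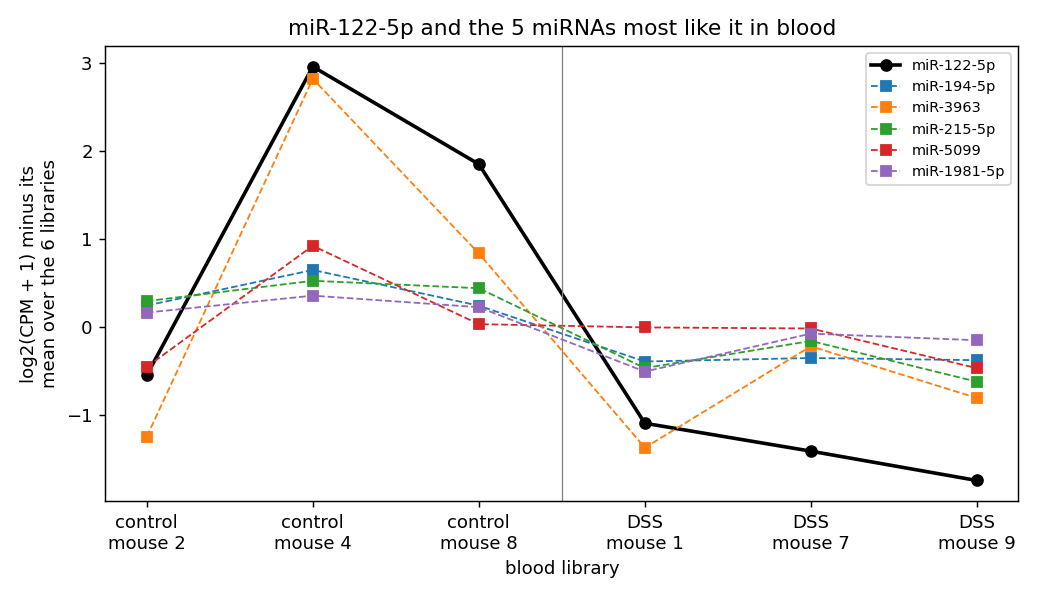
log2(CPM + 1) of miR-122-5p and of the 5 most similar miRNAs, each minus its mean over the 6 blood libraries (vertical axis), by library (horizontal axis). miR-122-5p and miR-3963 peak in control mouse 4, and miR-194-5p and miR-215-5p are lower in all 3 DSS mice by a smaller step.

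In colon, 271 miRNAs were compared in the same way. The closest were miR-24-2-5p (r = 0.90, rho = 0.89), miR-672-5p (r = 0.89, rho = 0.89), miR-744-5p (r = 0.87, rho = 0.94), miR-139-3p (r = 0.86, rho = 0.83) and miR-99a-5p (r = 0.85, rho = 0.94). Without DSS mice 1 and 9, the farthest from the median, r was 0.81, 0.43, 0.69, -0.15 and 0.55 in the same order. miR-672-5p had the pattern nearest to miR-122-5p in size, at 174, 105 and 30.4 CPM in DSS mice 1, 7 and 9 and 53.3, 40.9 and 56.2 CPM in control mice 2, 4 and 8. miR-24-2-5p moved little, from 331 to 406 CPM over the 6 libraries.

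Of 11 other miRNAs that the liver holds in quantity, 8 were tested in blood, with a median log2 fold change of 0.15, against -0.05 over all 484 miRNAs. None was SDE by edgeR, as for all 484 (0.00%), and none of the 7 that had an adjusted p by DESeq2. miR-194-5p alone of the 8 was lower in every DSS mouse, a share near the 9.92% of all miRNAs. miR-148a-3p, abundant in liver and in blood cells, was at 3388 ± 1424 CPM in DSS blood and 2411 ± 599.8 CPM in control blood (SD, n = 3 each). miR-802-5p, a further hepatocyte miRNA, had 1 count over the 6 blood libraries, and miR-193a-3p had 0. The largest count of miR-365-3p in blood was 11. miR-802-5p, miR-193a-3p and miR-365-3p were thus at or near 0 in blood, and other members of the list are shared with other tissues.

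In colon 9 of the 11 were tested and 3 were SDE, all lower, where 4.24% of all 542 miRNAs were SDE and lower, with a median log2 fold change of -0.18 against 0.04 over all 542. These were miR-192-5p (34127 ± 14078 CPM with DSS, 83327 ± 10232 CPM without), miR-194-5p (3840 ± 1455 CPM and 8110 ± 1024 CPM) and miR-148a-3p (15514 ± 7031 CPM and 37623 ± 3105 CPM), all at an adjusted p of 0.049 from edgeR (SD, n = 3 each). The levels of miR-192-5p and miR-194-5p in colon lay far above those in blood, and both are also known from the intestinal epithelium. None of these calls held with RLE or upper-quartile factors, or without mouse 2, 4, 7, 8 or 9. Without mouse 2, 4, 7 or 8 edgeR called 0 of all miRNAs in colon, so that loss is not particular to these 3. All 3 were SDE and lower with total counts alone and without mouse 1. DESeq2 also called them lower (adjusted p = 0.000142, 0.000946 and 0.000368 in the same order), where it called 6.34% of 536 miRNAs lower.

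Markers of other cells were read beside the fall of miR-122-5p in blood, where edgeR gave no SDE miRNA at all (0.00%), so that the counts of 0 by edgeR below say nothing particular of a list. Of 13 miRNAs listed for muscle, heart, brain or pancreas, 7 were tested in blood and 0 were SDE by edgeR, with a median log2 fold change of -0.21. In colon 9 were tested and 0 were SDE by edgeR, with a median of -0.33, while DESeq2 gave 1 that was lower (miR-217-5p, a pancreas miRNA). The shares over all miRNAs in colon were 10.1% SDE by edgeR and 6.34% SDE and lower by DESeq2, so these counts are near the background. miR-216b-5p, also of pancreas, had an adjusted p of 0.0528 by DESeq2. With no filter edgeR called 3 of 12 lower (miR-216a-5p, miR-216b-5p and miR-217-5p), where 32 of 1300 miRNAs were lower. These were low, with miR-217-5p at 3.77 CPM and miR-216b-5p at 1.40 CPM in control colon. This list is not restricted to those organs in colon, where its member miR-375-3p, an islet miRNA that gut endocrine cells also make, was at 8300 ± 5826 CPM in DSS mice (SD, n = 3) and miR-1a-3p, of muscle, at 2275 ± 721 CPM. Sums of a list are in CPM by total counts. The erythroid list (5 of 5 tested, 0 SDE by edgeR) summed to 769561 to 813993 CPM in DSS blood and 762874 to 838958 CPM in control blood. Nearly all of that sum is both miR-486 entries. miR-451a, the red cell miRNA processed without Dicer, was lower in every DSS mouse (9.92% of all 484 were), alone of the 5. It was at 7860 ± 1989 CPM against 11608 ± 1454 CPM in control mice (SD, n = 3 each), with a log2 fold change of -0.56 (SE 0.25). miR-144-3p and miR-144-5p went the other way, at 0.17 (SE 0.89) and 0.51 (SE 1.03). miR-486a-5p and miR-486b-5p were at -0.25 and -0.23 (SE 0.31 each). The part of miR-451a in the result on miR-122-5p was not tested. The myeloid list (4 of 4 tested, 0 SDE by edgeR) summed to 4312 to 7266 CPM in DSS blood and 2287 to 6249 CPM in control blood, and the lymphocyte list (2 of 2, 0 SDE by edgeR) to 95.8 to 111 CPM and 66.7 to 110 CPM. The ranges of these 3 sums overlap between the groups. DESeq2 gave 0 SDE members among the erythroid and lymphocyte lists and 1 in the myeloid list, miR-223-3p, a neutrophil miRNA that was higher in every DSS mouse, as were 7.44% of all 484 (adjusted p = 0.00330 from DESeq2, 0.165 from edgeR). DESeq2 called 1.05% of 287 miRNAs higher and 2.44% lower in blood. Within the myeloid list the log2 fold change by edgeR was 1.31 for miR-223-3p and 0.22 for miR-142a-5p. It was -0.58 for miR-142a-3p and -0.80 for miR-223-5p, the other arm of miR-223, so the members differed in direction. The platelet and endothelial list, of which miR-126a-3p alone of 2 was tested in blood, summed to 12.7 to 21.7 CPM in DSS mice and 22.7 to 50.9 CPM in control mice, without overlap. miR-126a-3p was lower in every DSS mouse, as were 9.92% of all 484 miRNAs, and was SDE by DESeq2 (adjusted p = 0.000866) but not by edgeR (adjusted p = 0.165). The part of these markers in the result on miR-122-5p was not tested. The epithelial list (6 of 6 tested and 0 SDE by edgeR; by DESeq2 4 with an adjusted p and 1, miR-215-5p, SDE and lower) summed to 511 to 564 CPM in DSS blood and 361 to 837 CPM in control blood, and the smooth muscle list (2 of 2 tested by edgeR and 1 with an adjusted p by DESeq2, 0 SDE by either) to 165 to 337 CPM and 136 to 459 CPM.

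In colon the myeloid list (4 of 4 tested) had 2 SDE members, both higher in DSS mice, and the epithelial list (6 of 6 tested) had 2, both lower, by edgeR. The shares over all 542 miRNAs were 5.90% for higher and 4.24% for lower SDE calls. Without mouse 2, 4, 7 or 8 none of these 4 calls held, and RLE or upper-quartile factors left miR-223-5p and miR-429-3p alone. DESeq2 gave 3 higher myeloid and 5 lower epithelial members, where 7.46% of 536 miRNAs were higher and 6.34% lower by that test. By both tests 0 members were SDE among the 4 erythroid, 2 lymphocyte, 2 platelet and endothelial, and 2 smooth muscle miRNAs tested there. The summed erythroid level was 2995 to 5013 CPM in DSS colon and 2827 to 4016 CPM in control colon, and these ranges overlap. Their part in the colon values of miR-122-5p was not tested.

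The passenger arm gave no value to compare. miR-122-3p had 0 counts beside 7090 counts of miR-122-5p in blood and 3197 in colon. A count of 0 allows up to 3 counts, so its share of miR-122 was at most 0.0423% in blood, 0.0938% in colon and 0.0292% over both. In single libraries that limit was between 0.0903% and 2.17%, and the floor of miR-122-3p lay between 0.0755 and 0.215 CPM. A difference in arm use between tissues or groups was not detectable at this depth.

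miR-122-5p had no near-identical copy among the counted miRNAs. It is 22 nt long, and 0 of the other miRNAs with a sequence in the deposited tables carried the same bases 2 to 8. The closest by edit distance was miR-122b-5p, at 4 changes, with 1 count over the 12 libraries, and miR-122b-3p had 0. The next was let-7k at 8 changes.

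Mir122 lies in GRCm38 on the plus strand of chromosome 18, from 65248861 to 65248926 in the GENCODE annotation. Its 66 bp hairpin is within an exon (65245359 to 65252621) of the long intergenic noncoding RNA AC157910.3 (65244287 to 65252621). The closest protein-coding gene is Alpk2, at a distance of 16603 bp.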

How the data were processed

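Small RNA of blood and colon of 6 mice was analysed in 12 libraries. The authors trimmed reads with Flexbar, collapsed them with fastx-toolkit, and deposited counts of mature mouse miRNAs (miRBase 22) from the miRDeep2 (2.0.1.0) quantifier with default options. For each tissue, the authors deposited in addition a normalized signal, the count over a DESeq2 (1.22.2) size factor, which was used only in an alternative and for the sequences. GRCm38 is the build in the submitters' processing notes.

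Counts were fitted in R (4.3.3) with edgeR (4.0.16) glmQLFit and glmQLFTest after filterByExpr and TMM, in each tissue alone, and over 4 groups for blood against colon. P-values were adjusted by the Benjamini-Hochberg method over all miRNAs tested. The SE was taken from the F statistic. The scripts were tested on simulated data. DESeq2 (1.42.0), limma (3.58.1) on log2(signal + 1), other scalings and filters, each mouse left out, and the grouping of the disease state label were alternatives. Intervals used SciPy (1.17.1) in Python (3.11.15). Blood against colon was planned as a test and is given as a description, since its blood libraries chose the miRNA. Each library of a group is another mouse, so p-values measure the spread between mice.

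The same mouse gave blood and colon, so the libraries are paired by animal; deviations from the group means over 357 miRNAs correlated at -0.30 to 0.16 within a mouse (mean -0.08). Named miRNAs were the members, the 5 most correlated with miR-122-5p in each tissue, its neighbours in mean level in control mice, and listed markers; miR-672-5p and the order of examples were picked among these after their values were seen. The members and lists were chosen with earlier results of these data known. The sequence of miR-122 is not reported here.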

Additional observations from a re-analysis of the deposited data

Results flagged for a closer look

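The level of miR-122-5p in the colon of DSS mouse 1, 78.6 CPM with TMM factors over 12 libraries, stood apart from the other 5 colon libraries. Its gap to the next, 28.3 CPM in control mouse 8, was 0.695 of the whole range of the 6, above Dixon's critical value of 0.625. The values were CPM, not log2(CPM + 1) as for the spreads above, and the log scale was not tested. The 6 libraries pool DSS and control mice, and such a test marks some groups by chance alone. The highest blood library, control mouse 4 at 199.6 CPM, had a gap of 0.390 of the range and did not pass. The blood of mouse 1 was at 17.6 CPM on the same scale, and the cause of its colon value was not tested.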

How the results depend on the processing

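The colon difference of miR-122-5p kept its direction and stayed short of the threshold in 17 of 18 alternatives, with adjusted p between 0.180 and 0.991 over them; without mouse 1 it was -0.43, and with each mouse left out it ran from -0.43 to 1.56. The blood difference, which has no test, was below 0 in 17 of 18, between -4.01 (without mouse 2) and -2.57 (without mouse 4) with each mouse left out, and was 1.08 with the grouping of the disease state label. Blood against colon, for which no test is read, was above 0 in 17 of 18: it was -0.082 with total counts alone, 1.82 with upper-quartile factors, and 0.16 to 1.15 with each mouse left out (1.15 without mouse 1, 0.16 without mouse 4). With the mouse as a replicate block it was 0.68 (SE 0.42), and 597 miRNAs were SDE; the block was run for this comparison alone. SDE miRNAs in colon numbered 55, against 16 with RLE factors, 8 with upper-quartile factors, 76 with no filter, 0 in all 12 libraries in 1 fit or with the label grouping, and between 0 and 44 when single mice were left out. In blood they numbered 0, against 25 with no filter, 10 with DESeq2 and 1 without mouse 2 or with 12 libraries in 1 fit. Between tissues they numbered 603 of 680 tested, against 244 of 288 with at least 10 counts in every library and 826 of 1405 with no filter. The cause of these changes was not tested. No test of arm shares was possible because miR-122-3p was at 0. Depth limits a count by its counting error, with half-widths of 3.42% to 17.1%; noise of the library preparation was not measured.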
